A study of Mus musculus with 2 samples.

Results

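Cells of a mixed pool of mouse hematopoietic stem cells were compared by whether they held transcripts of Cd34, the gene of the cell surface sialomucin CD34. Of 10809 droplet barcodes, 1512 were kept as cells. A kept barcode had at least 1500 UMIs (unique molecular identifiers, 1 per captured transcript), at most 20% mitochondrially encoded UMIs and fewer than 3 UMIs summed over the granulocyte, mast cell and basophil genes Mpo, Elane, Ctsg, Prtn3, Ms4a3, Mcpt8 and Prss34. The Cd34-positive side held the 228 cells with at least 2 Cd34 UMIs, and the Cd34-undetected side the 989 cells with 0. The 295 cells with 1 Cd34 UMI belonged to neither side. Both sides were selected on their Cd34 UMI counts, so Cd34 itself is only described, and it was left out of the totals and of every comparison.

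The pool combined 2 kinds of sorted bone marrow cells. Cells sorted for GFP and viability alone came from Mds1-GFP/+ Flt3-Cre mice, in which the Mds1 region of Mecom carries GFP, and the labels call them GFP+ long-term hematopoietic stem cells (LT-HSCs). They were rare and were mixed with LT-HSCs of wild-type mice sorted as DAPI- Lin- cKit+ Sca+ CD48- CD150+, the SLAM gate, all from lineage-depleted marrow of animals whose age and number are not given in the sources used here. The CD34 protein was no part of either gate, per the labels. The libraries were made with inDrops, a droplet method that counts 3' ends of single-cell transcripts, from 2 aliquots of the 1 pool, called aliquot 1 and aliquot 2 here. The pool is the unit of replication, so n = 1, the aliquots are technical, cells are not replicates, and no test between the sides was possible. The intervals below are exact 95% intervals for counting error, which does not include the spread between mice or the clustering of a gene's UMIs in single cells. Those of shares of cells treat each cell as drawn independently and are no test between the sides.

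In adult mouse marrow the most dormant, long-lived stem cells carry little CD34 on their surface, whereas short-term stem cells and multipotent progenitors (MPPs) carry it. CD34 is used together with the receptor tyrosine kinase FLT3, the signalling lymphocyte receptors CD48 and CD150 and the stem cell markers KIT and SCA-1 (Ly6a) to tell these stages apart. CD34 is also made by endothelial and stromal cells of the marrow and by mast cell progenitors, so genes of those cells were examined as well.

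The regions just upstream of Cd34 and of Flt3, Plac8 and Cd27, the 3 progenitor genes with the clearest difference between the sides, are shown because the summed UMIs of these genes were higher on the Cd34-positive side. Each sequence runs from 250 to 51 bases before the gene's RefSeq start on GRCm38.p6, 5′ to 3′ on the gene's strand, and holds no annotated exon base. Capitals mark matches, on either strand, to 4 short motifs searched by their letters. The GATA motif was searched as GATAA, that of RUNX factors as TGTGGT, that of ETS factors as GGAAG and that of MYB as AACNG, and no match overlapped another.
Cd34: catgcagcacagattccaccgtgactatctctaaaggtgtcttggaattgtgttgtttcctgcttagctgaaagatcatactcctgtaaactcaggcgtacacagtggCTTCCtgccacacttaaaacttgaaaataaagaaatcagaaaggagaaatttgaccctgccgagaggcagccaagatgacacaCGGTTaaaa
Flt3: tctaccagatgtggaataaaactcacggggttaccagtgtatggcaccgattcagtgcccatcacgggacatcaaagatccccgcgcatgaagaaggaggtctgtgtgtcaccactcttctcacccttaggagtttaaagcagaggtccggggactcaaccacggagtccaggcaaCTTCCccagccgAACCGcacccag
Plac8: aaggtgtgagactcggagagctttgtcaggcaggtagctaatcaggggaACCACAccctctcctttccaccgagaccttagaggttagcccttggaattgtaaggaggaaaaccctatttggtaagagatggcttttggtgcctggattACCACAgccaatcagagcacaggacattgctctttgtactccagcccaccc
Cd27: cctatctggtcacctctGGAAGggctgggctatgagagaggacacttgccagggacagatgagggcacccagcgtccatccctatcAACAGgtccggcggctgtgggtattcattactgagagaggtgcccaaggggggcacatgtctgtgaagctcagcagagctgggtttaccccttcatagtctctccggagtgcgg
The Cd34 window lies at chr1:194938571-194938770 on the plus strand, and the others lie on the minus strand at chr5:147400540-147400739 (Flt3), chr5:100572256-100572455 (Plac8) and chr6:125237078-125237277 (Cd27). The windows of Cd34, Flt3 and Cd27 each held 1 GGAAG and 1 AACNG match and no TGTGGT match. The Plac8 window held 2 TGTGGT matches and neither of those. No GATAA match was found in the 4 windows. Of 32851 windows of the same length upstream of annotated genes, 54.95% held GGAAG, 66.7% AACNG, 11.6% TGTGGT and 19.3% GATAA, so the matches are a description of these letters.

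Cd34 transcripts were unevenly spread over the kept cells. Cd34 lies on chromosome 1 from 194938819 to 194961279 on GRCm38 and encodes a heavily glycosylated adhesion molecule of the podocalyxin family. No Cd34 UMI was found in 65.4% of kept cells, 1 in 19.5% and 2 or more in 15.1% (13.3 to 17.0%, Clopper-Pearson). There were 115 cells with 2 UMIs, 60 with 3, 29 with 4 and 10 with 5, and the highest count was 9. If all cells had carried Cd34 at 1 common rate per UMI, 49.5 cells with at least 3 UMIs would have been found, where 113 were observed, and 813 cells without any, where 989 were observed. For at least 2 UMIs, the limit of the positive side, that rate gave 211 cells, close to the 228 observed. The level over all kept cells was 262 CPM, Cd34 UMIs per 1000000 UMIs (246 to 279), with 250 in aliquot 1 and 263 in aliquot 2.

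The split moved with depth. In aliquot 2 the share of cells with at least 2 Cd34 UMIs was 11.2% among cells of 1500 to 2000 UMIs, 14.2% up to 3000, 24.0% up to 5000 and 37.5% of the 16 cells above that, while the Cd34 level in CPM stayed between 254 and 310. The 2 sides were therefore compared in 228 pairs of 1 positive and 1 undetected cell of the same aliquot and nearly the same total, 19 pairs in aliquot 1 and 209 in aliquot 2. The median total was then 2475.5 UMIs on the positive and 2476.5 on the undetected side, with 1242 and 1231 genes detected per cell and 4.59% and 4.78% mitochondrial UMIs. An undetected cell is not a cell without Cd34 transcript, since 1 UMI stands for a molecule that was caught.

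**Figure D1:**
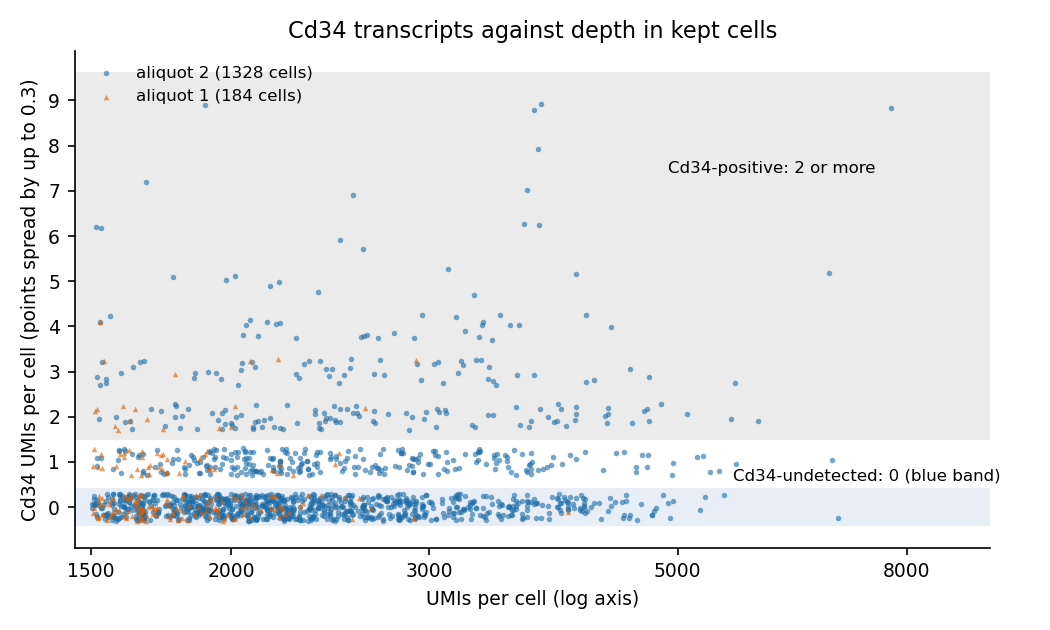
Cd34 UMIs per cell (y axis, points spread by up to 0.3) against total UMIs per cell (x axis, log scale) for the 1512 kept cells, triangles for the 184 cells of aliquot 1 and circles for the 1328 of aliquot 2. The grey band holds the 228 Cd34-positive cells and the blue band the 989 undetected cells, and cells with many Cd34 UMIs lie at all depths but more often at high ones.

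Barcodes under 200 UMIs were used as a measure of free RNA in droplets. They held Cd34 at 313 CPM (268 to 363), a rate close to that of the cells. Their smaller Cd34 load per barcode therefore follows largely from the limit on their totals. Of these 6492 barcodes 134 held a Cd34 UMI and 31 held 2 or more, and whether they held free RNA alone was not tested. Per barcode that load would put 7.32 Cd34 UMIs into the kept cells of aliquot 1, where 85 were found, and 35.0 into those of aliquot 2, where 887 were found. Of the 16 cells of at least 1500 UMIs that were rich in the neutrophil transcripts Camp, Ltf, Ngp, S100a8 and S100a9, a type that should lack Cd34, 1 cell had a Cd34 UMI (6.25%, 0.158 to 30.2%) at a median of 2388 UMIs, against 34.6% of kept cells at a median of 2209.

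Over all genes the ratios were centred near 1. Of 4784 genes with at least 50 UMIs over both matched sides (called measured below), 50.8% had a ratio of positive to undetected CPM (over the side's summed cells) above 1, and the median log2 ratio was 0.01. Scaling each side to CPM largely sets this centre, so it does not show how alike the sides were. A gene was counted as past 1.5-fold where the ratio was at least 1.5, or at most its inverse, with 1 direction in each aliquot that had 5 UMIs of it. By this rule 262 genes (5.48%) were higher and 255 (5.33%) lower in Cd34-positive cells. These shares are the background against which the counts for gene lists are to be read. A second set of comparison cells was the 761 undetected cells that the match did not use, chosen after seeing the data, at a lower median of 2099 UMIs. The same 228 positive cells enter both comparisons, so a gene's ratios against the matched and the unused cells are not independent. Of the 161 genes that the rule for named genes picked, 31 lay on the other side of 1 against this second set, and 63 did so in the 19 pairs of aliquot 1 alone.

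Flt3, Plac8 and Cd27, genes of multipotent and lymphoid-primed progenitors, were higher in Cd34-positive cells and carried the sum of their list. The list of 20 such genes stood at 1423 CPM in positive and 1088 in matched undetected cells, a ratio of 1.31 (1.18 to 1.45), with 2.88 (1.80 to 4.73) in aliquot 1 and 1.25 (1.12 to 1.39) in aliquot 2. Against the unused undetected cells the ratio was 1.23 (1.14 to 1.33). Of its 8 measured genes, 5 had a ratio above 1, 3 were past 1.5-fold higher and 1 was past 1.5-fold lower, with a median log2 ratio of 0.32. The 16 other members in the files held 402 UMIs against 442, a ratio of 0.903 (0.787 to 1.04), and without Plac8 alone the list stood at 1.13 (1.01 to 1.27), both chosen after seeing the data. Per cell the list's median was 1185 CPM on the positive and 840 on the undetected side, and 19 positive against 43 undetected cells held none of its UMIs.

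Flt3, the receptor of the growth factor FLT3 ligand and the gene whose promoter drives Cre in the reporter mice, had the highest ratio of any gene ranked. It gave 4 UMIs in positive and 1 in undetected cells of aliquot 1, and 42 against 11 in aliquot 2. Its level was 74.0 CPM (54.1 to 98.7) against 19.4 (10.04 to 33.9), a ratio of 3.81 (1.98 to 7.89), and 2.13 (1.42 to 3.18) against the unused undetected cells. The UMIs came from 30 positive and 10 undetected cells, with at most 3 in 1 cell, so most cells of both sides had none. Flt3 lies on chromosome 5 from 147330741 to 147400489 on the minus strand.

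Plac8, a small cysteine-rich protein gene of early progenitors, was the most abundant of the 3 higher genes. It gave 24 UMIs in positive and 1 in undetected cells of aliquot 1, and 219 against 109 in aliquot 2. Plac8 stood at 391 CPM against 178, a ratio of 2.19 (1.74 to 2.77), and 1.86 (1.57 to 2.19) against the unused cells. It was found in 89 positive and 47 undetected cells, and 17 against 4 cells held 5 or more of its UMIs. The direction was 1 in both aliquots, and the interval lay above 1 for either set of comparison cells, with the same positive cells in each. Plac8 lies on chromosome 5 from 100553725 to 100572245.

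Cd27, a receptor of the TNF receptor family used as a marker of progenitors with short-lived output, gave 11 UMIs against 1 in aliquot 1 and 183 against 107 in aliquot 2. Its level was 312 CPM against 175, a ratio of 1.78 (1.40 to 2.28), in 110 positive and 68 undetected cells, and 1.51 (1.26 to 1.81) against the unused cells. No cell held more than 5 Cd27 UMIs, so no single cell carried the difference. Whether the sides differed in the level per cell or in the share of cells with the transcript was not tested. Cd27 lies on chromosome 6 from 125232622 to 125237010.

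The other measured genes of the list went either way. Il12a, a cytokine subunit, stood at 1.34 (0.755 to 2.40) and Tcf3, the gene of the lymphoid transcription factor E2A, at 1.16 (0.823 to 1.64), with 2.05 (1.24 to 3.34) and 0.890 (0.678 to 1.16) against the unused cells. Emb, embigin, stood at 0.871 (0.599 to 1.26) and Bcl11a, a zinc finger factor of lymphoid progenitors, at 0.767 (0.605 to 0.971). Lsp1, a leukocyte actin-binding protein, was past 1.5-fold lower at 0.477 (0.280 to 0.790), with 24 against 50 UMIs. Of the genes below 50 UMIs, Cd48 had 6 against 5 UMIs, and Dntt, the enzyme of early lymphoid cells, had 6 UMIs in 2 positive cells and 0 in undetected cells. A UMI of Flt3 or Cd48 was found in 14.9% of positive cells (10.6 to 20.2%) and 6.58% of matched undetected cells (3.73 to 10.6%).

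Genes of long-term stem cells were lower in Cd34-positive cells. The LT-HSC list of 32 genes stood at 5031 CPM against 5962, a ratio of 0.844 (0.804 to 0.885), with 0.610 (0.484 to 0.767) in aliquot 1 and 0.857 (0.816 to 0.900) in aliquot 2. Against the unused undetected cells it was 0.693 (0.666 to 0.721). Of 22 measured members 6 had a ratio above 1, none was past 1.5-fold higher and 3 were past 1.5-fold lower, with a median log2 ratio of -0.30 against 0.01 over all genes. Per cell the median was 4658 CPM on the positive and 5826 on the undetected side, and the quartiles overlapped widely, from 3193 to 6927 and from 3459 to 8786.

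The 3 members past 1.5-fold lower were few in UMIs, and without them the list stood at 0.856 (0.815 to 0.899). Vwf, von Willebrand factor, a marker of platelet-biased stem cells, stood at 0.465 (0.267 to 0.787) with 22 against 47 UMIs, and at 0.678 (0.405 to 1.09) against the unused cells. Pdzk1ip1, a small membrane protein gene used as a stem cell reporter, stood at 0.665 (0.476 to 0.925), and Cdkn1c, the gene of the cell cycle inhibitor p57, at 0.613 (0.338 to 1.09), an interval that includes 1.

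The abundant members differed by less. Txnip, a thioredoxin inhibitor, was at 1000 CPM against 1244, a ratio of 0.804 (0.722 to 0.895), with 19 against 44 UMIs in aliquot 1 and 603 against 724 in aliquot 2. It was thus lower on the positive side of each aliquot. Ifitm1 and Ifitm3, interferon-induced membrane proteins, stood at 0.815 (0.685 to 0.969) and 0.789 (0.652 to 0.953), Gata2, a stem cell transcription factor, at 0.814 (0.675 to 0.981) and Ly6a, the gene of SCA-1, at 0.741 (0.558 to 0.980). Against the unused cells Ifitm1 stood at 0.512 (0.445 to 0.588), Ly6a at 0.545 (0.431 to 0.684) and Txnip at 0.649 (0.594 to 0.708), all further below 1. In matched cells without those rich in neutrophil transcripts, Ly6a stood at 0.829 (0.621 to 1.11), an interval that includes 1. The ratio of Ifitm3 in aliquot 1 was 1.50, from 15 UMIs.

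Mecom, the locus that carries the reporter and a gene of stem cell maintenance, was at 0.700 (0.462 to 1.05), an interval that includes 1, and at 0.552 (0.389 to 0.769) against the unused undetected cells. A Mecom UMI was found in 11.8% of positive cells (7.95 to 16.8%) and 18.0% of matched undetected cells (13.2 to 23.6%). Mllt3, a chromatin reader that maintains stem cells, stood at 0.678 (0.474 to 0.964), though with 3 UMIs against 1 in aliquot 1. Procr, the gene of the stem cell marker EPCR, was at 0.887 (0.593 to 1.32) in matched and 0.419 (0.305 to 0.566) against unused cells. Procr thus differed from the unused, shallower cells and not detectably from the matched ones.

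For several core stem cell genes the interval of the ratio included 1 in the matched cells. Hlf, a transcription factor restricted to stem cells, stood at 582 CPM against 607, a ratio of 0.959 (0.827 to 1.11), and was found in 146 positive and 138 undetected cells, with 0.832 (0.737 to 0.936) against the unused cells. Meis1, a homeobox factor, stood at 1.05 (0.863 to 1.29), Esam, an adhesion molecule, at 1.19 (0.918 to 1.54) and Hoxa9, a homeobox gene with 39 against 25 UMIs, at 1.55 (0.914 to 2.67). Against the unused cells Meis1 stood at 1.01 and Esam at 1.01, while Hoxa9 lay on the other side of 1, at 0.880 (0.597 to 1.27). Transcripts of Hlf, Mecom and Meis1 were thus found on both sides, Mecom in 27 positive and 41 undetected cells and Meis1 in 115 and 105. These are single members of the LT-HSC list, whose sum was lower on the positive side. Slamf1, the gene of the sorted marker CD150, was barely detected, with 5 UMIs on the positive and 19 on the undetected side.

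**Figure D2:**
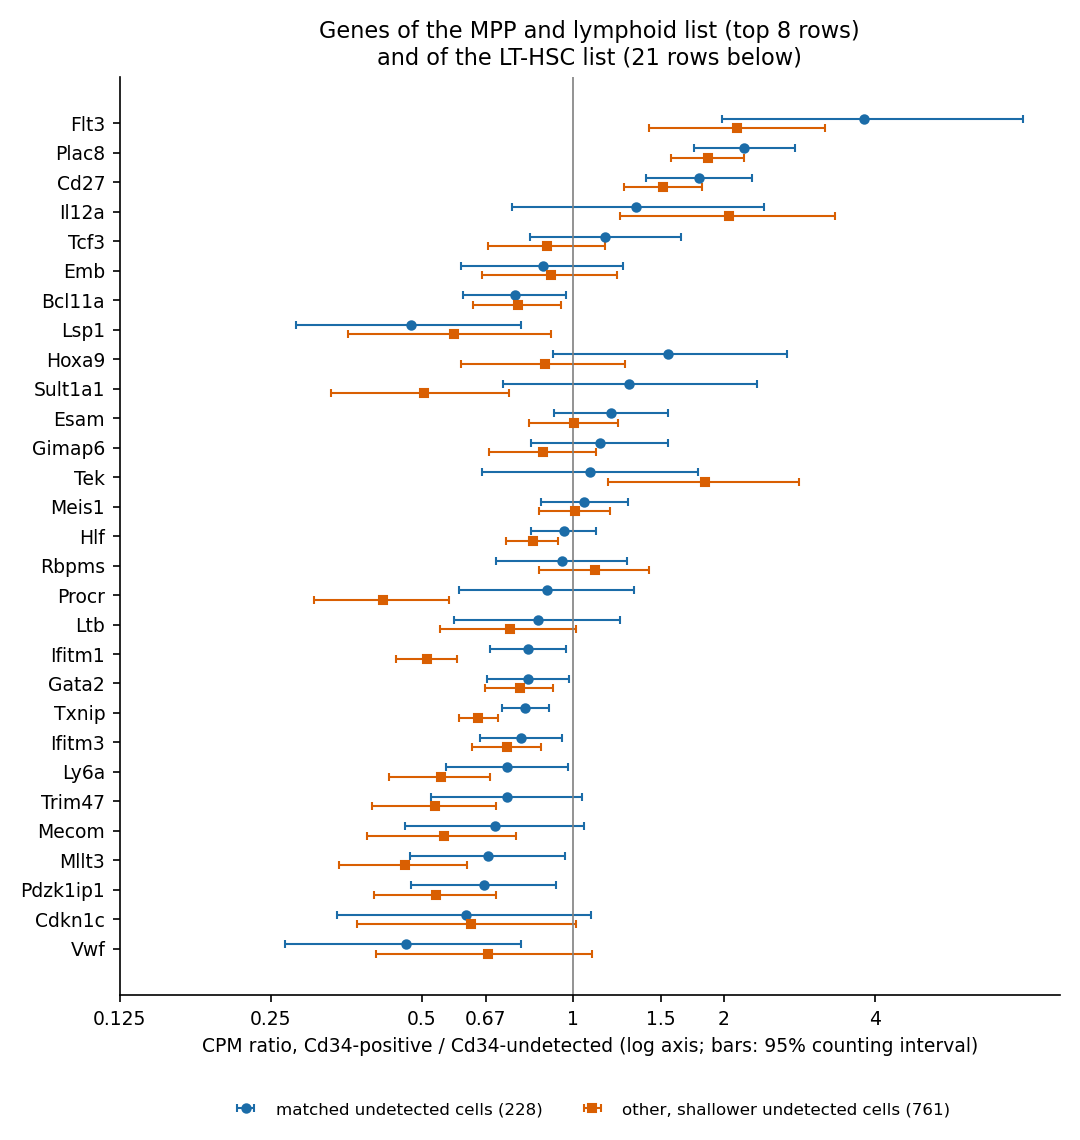
Ratio of CPM, Cd34-positive to Cd34-undetected cells (x axis, log scale, with exact 95% counting intervals), for the 8 measured genes of the MPP and lymphoid list and 21 of the LT-HSC list (rows). Circles compare with the 228 depth-matched undetected cells and squares with the 761 other, shallower ones, and Flt3, Plac8 and Cd27 lie above 1 while Vwf, Mllt3, Pdzk1ip1 and Txnip lie below 1 in both.

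The sums of the MPP and lymphoid list and of the LT-HSC list each changed in 1 direction with the Cd34 count. Cells with 0, 1, 2 and 3 or more Cd34 UMIs were matched in depth, with 113, 113, 99 and 113 cells. The MPP and lymphoid list stood at 985, 1152, 1277 and 1537 CPM and the LT-HSC list at 6411, 5554, 5369 and 4887 CPM in that order. Cells just outside the rule, with 1 Cd34 UMI, thus had values between those of the undetected cells and of those just inside it, with 2, in both lists. The difference between cells with 1 and with 2 was small, and whether it exceeded counting error was not tested.

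Single genes shown for their steps were chosen after their values were seen. Plac8 stood at 156, 308, 330 and 412 CPM and Flt3 at 22.7, 29.2, 53.7 and 93.2. Cd27 stood at 172 and 159 CPM with 0 and 1 UMIs and at 303 and 328 with 2 and more. Over all cells, not matched in depth, Cd27 stood at 198, 243, 296 and 328 CPM in that order, so the place of the 1-UMI cells differed with the cells chosen. Myc, the growth transcription factor, was at 266, 237 and 268 CPM up to 2 UMIs and at 405 CPM (337 to 482) in cells with 3 or more. Txnip went from 1410 to 1139, 1020 and 1035 CPM, Pdzk1ip1 from 182 to 166, 99.7 and 99.7, and Ifitm1 from 583 to 545, 426 and 376. Cd74, the invariant chain of MHC class II, went from 156 to 133, 65.2 and 45.01 CPM.

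**Figure D3:**
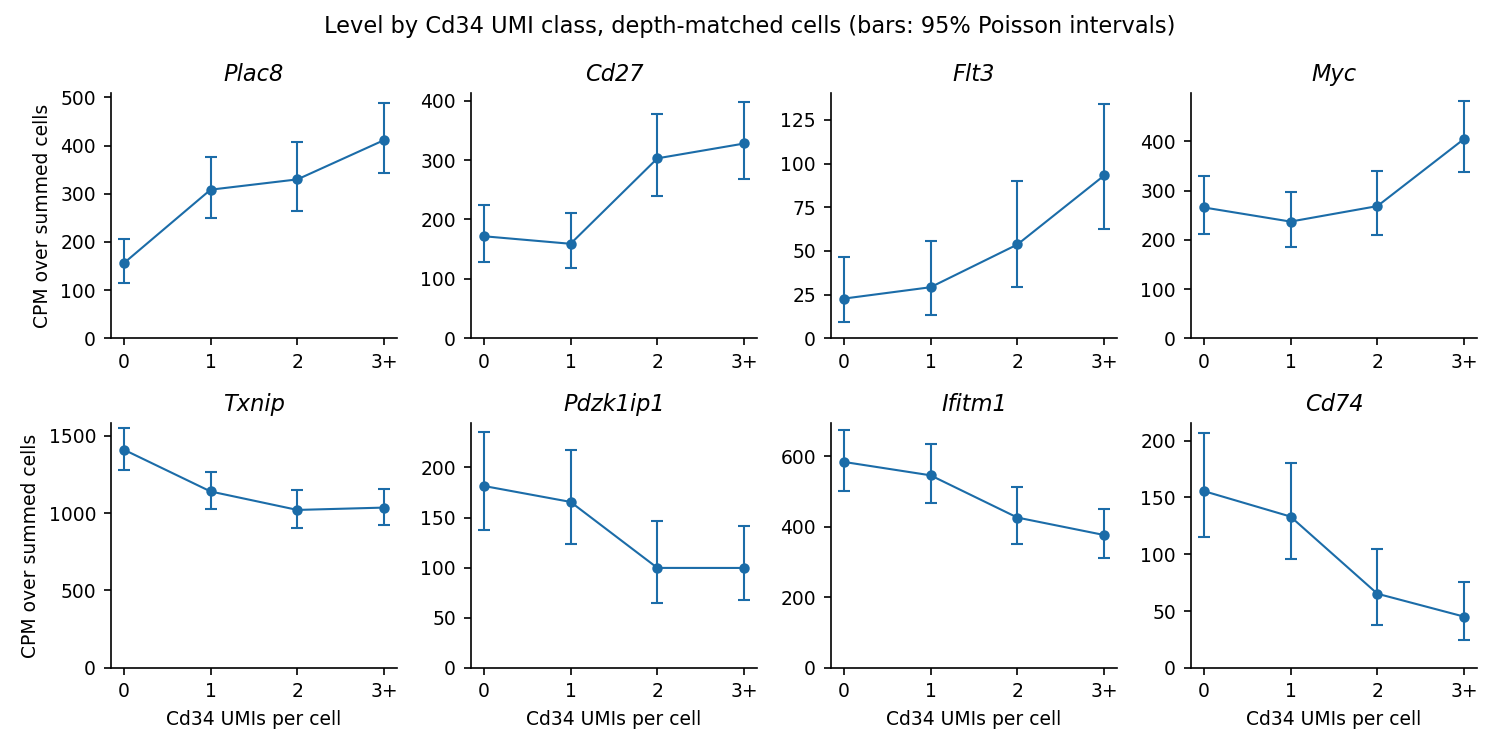
Level in CPM over summed cells (y axes, from 0) for 8 genes in depth-matched cells with 0, 1, 2 and 3 or more Cd34 UMIs (x axes), with 95% Poisson intervals as bars. Plac8, Cd27, Flt3 and Myc are highest in cells with 3 or more Cd34 UMIs, and Txnip, Pdzk1ip1, Ifitm1 and Cd74 are highest in cells with 0.

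Cdk6 and E2f1, genes of cell cycle entry, were higher in positive cells, while the list they belong to rested on few members. The list of 15 cyclins, kinases and inhibitors stood at a ratio of 1.11 (1.04 to 1.20), with 3 of 12 measured genes past 1.5-fold higher and 1 lower. It stood at 1.06 (0.9998 to 1.12) against the unused cells, at 1.03 (0.896 to 1.19) without cells of 3 or more G2 and M phase UMIs, and at 1.01 (0.926 to 1.09) without the 4 members past 1.5-fold. Cdk6, the G1 kinase that lets stem cells leave dormancy, gave 29 UMIs against 17 in aliquot 1 and 323 against 213 in aliquot 2. Its level was 566 CPM against 372, a ratio of 1.52 (1.28 to 1.80), and 1.51 (1.33 to 1.73) against the unused cells. E2f1, a transcription factor of the G1 to S transition, stood at 2.50 (1.55 to 4.15) with 63 against 25 UMIs, and at 2.61 (1.82 to 3.74) against the unused cells. Cdkn1b, the gene of the inhibitor p27, stood at 1.53 (0.971 to 2.45), and both E2f1 and Cdkn1b are named after their values were seen. The D-type cyclins were near 1, with Ccnd2 at 0.927 (0.806 to 1.07) and Ccnd3 at 0.865 (0.678 to 1.103).

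S phase genes stood at 1.06 (1.00 to 1.12), with 17 of 24 measured genes above 1, and G2 and M phase genes at 0.976 (0.927 to 1.03), with 10 of 24 above 1. Each of the 2 lists had 1 gene past 1.5-fold lower, and the S phase list 1 higher. The aliquots differed, with G2 and M phase genes at 1.79 (1.50 to 2.14) in the 19 pairs of aliquot 1 and 0.917 (0.868 to 0.968) in aliquot 2. With each cell thinned to 1500 UMIs, 61.8% of positive (55.2 to 68.2%) and 57.5% of undetected cells (50.8 to 64.0%) held at least 3 S phase UMIs. For G2 and M phase genes the shares were 51.3% (44.6 to 58.0%) and 47.4% (40.7 to 54.1%). For both lists the intervals of the sides overlapped, and the differences were not tested because cells are not replicates. Unthinned, the S phase share was 72.8% on both sides and the G2 and M phase share 64.0% and 60.5%.

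Against the unused undetected cells the phase lists did differ, with S phase genes at 1.3 (1.25 to 1.37) and G2 and M phase genes at 1.37 (1.31 to 1.44). Those cells were shallower, and total UMIs per cell were matched only in the main comparison. Myc stood at 1.27 (1.03 to 1.58) in matched and 1.49 (1.25 to 1.78) against unused cells. The ribosome biogenesis list, which holds many targets of MYC, stood at 1.06 (1.01 to 1.11), with 0 of 21 measured genes past 1.5-fold in either direction, and Npm1, nucleophosmin, at 1.12 (1.04 to 1.22).

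The sum of MHC class II genes was lower in Cd34-positive cells. The list of 8 stood at 432 CPM against 597 and a ratio of 0.724 (0.616 to 0.849), with 0.689 (0.601 to 0.789) against the unused cells. Per cell the medians were close, at 268 CPM on the positive and 277 on the undetected side, and 103 against 108 cells held none of its UMIs. Of 4 measured members 2 were past 1.5-fold lower, and the other members together stood at 0.888 (0.734 to 1.07). Cd74 gave 0 against 2 UMIs in aliquot 1 and 33 against 84 in aliquot 2, a ratio of 0.381 (0.247 to 0.575), and 0.416 (0.280 to 0.602) against the unused cells. Of the 86 Cd74 UMIs of the matched undetected side 33 came from 5 cells, while no positive cell held 5 or more. The chains H2-Eb1 and H2-Aa stood at 0.518 (0.302 to 0.866) and 0.680 (0.485 to 0.947), while H2-DMa, a peptide-loading factor, stood at 1.17 (0.875 to 1.57). Cells with at least 2 class II UMIs were 13.6% of positive (9.43 to 18.7%) and 18.9% of matched undetected cells. MHC class I genes were close to equal, at 0.975 (0.942 to 1.01), with H2-K1 at 0.993 and B2m at 0.952.

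Megakaryocyte and platelet genes were lower in positive cells, to a degree that rested on few cells. The list of 23 stood at 0.646 (0.606 to 0.687), with 1 of 12 measured members above 1 and 5 past 1.5-fold lower. Pf4, platelet factor 4, gave 1 UMI against 7 in aliquot 1 and 41 against 242 in aliquot 2, a ratio of 0.167 (0.118 to 0.233), but 201 of the 249 UMIs of the undetected side came from 11 cells. Against the unused undetected cells Pf4 stood at 0.728 (0.506 to 1.03). Without cells of 5 or more Pf4 UMIs, an alternative chosen after seeing the data, the list stood at 0.819 (0.766 to 0.876), and against the unused cells at 0.814 (0.770 to 0.860).

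Rap1b, a small GTPase of platelet adhesion, stood at 0.545 (0.457 to 0.648) in matched and 0.867 (0.737 to 1.02) against unused cells, and Cd9, a tetraspanin, at 0.583 (0.484 to 0.700), with 0.794 (0.671 to 0.934) against the unused cells and 1.099 in aliquot 1. F2r, a thrombin receptor named after its values were seen, stood at 0.612 (0.395 to 0.938). Slc18a2, a monoamine transporter, was the member above 1, at 1.33 (1.02 to 1.75). Pf4 and Rap1b were thus clearly lower only against the matched cells.

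Immediate early genes, which respond within minutes to stimuli, reversed with the comparison cells. In the matched cells the list of 19 stood at 1.29 (1.20 to 1.38), with 10 of 11 measured genes above 1 and 3 past 1.5-fold higher. Fos stood at 1.97 (1.48 to 2.64), with Klf6 at 1.82 (1.27 to 2.64) and Dusp2 at 1.68 (1.18 to 2.42), all 3 named after their values were seen. Against the unused undetected cells the list stood at 0.875 (0.829 to 0.923), Fos at 0.893 and Jun, at 1.23 (1.06 to 1.42) in matched cells, at 0.929. No direction is given for these genes.

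**Figure D4:**
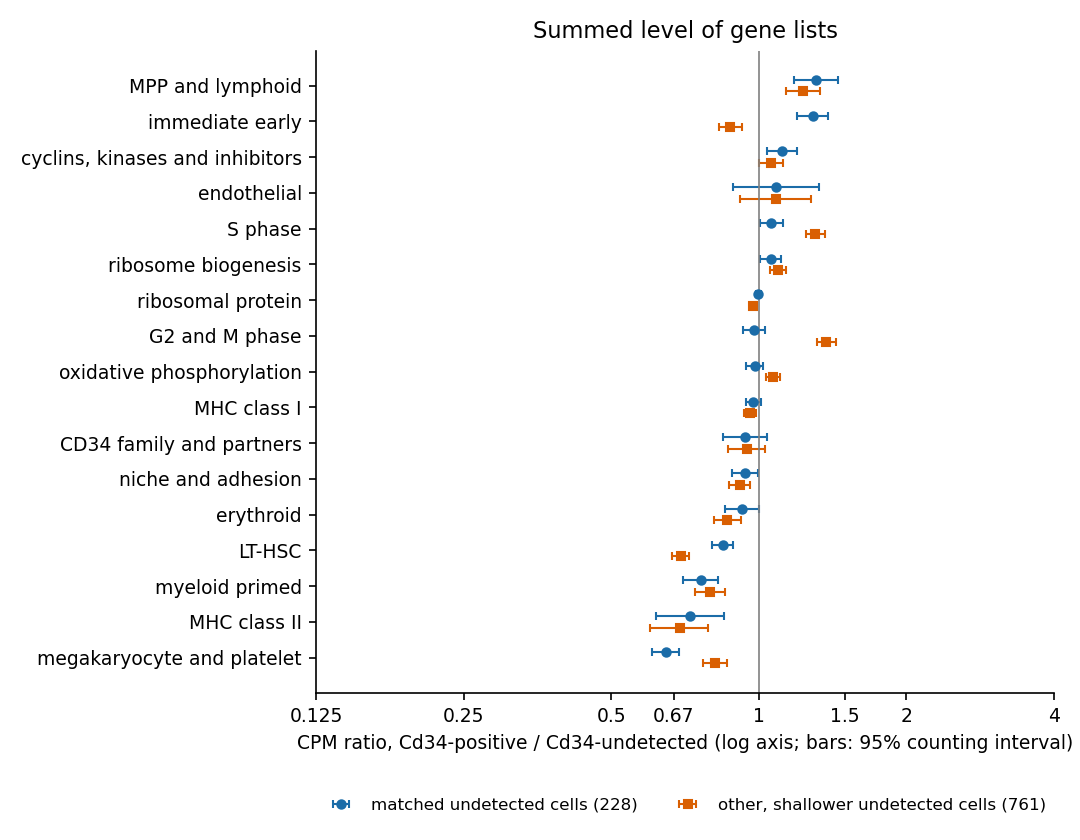
Ratio of summed CPM, Cd34-positive to Cd34-undetected cells (x axis, log scale, with exact 95% counting intervals), for 17 gene lists (rows). Circles use the 228 depth-matched undetected cells and squares the 761 others, and the MPP and lymphoid list lies above 1 and the LT-HSC, MHC class II, myeloid primed and megakaryocyte lists below 1 in both, while the immediate early list changes side.

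The relatives and partners of CD34 did not follow it. The list of 12 genes, which holds podocalyxins, adhesion partners and the CRK adaptors, stood at 0.938 (0.845 to 1.04), with 0 of 6 measured genes past 1.5-fold. Cd44, a hyaluronan receptor, stood at 0.979 (0.773 to 1.24), Cd164, a sialomucin, at 1.09 (0.782 to 1.52) and Selplg, the P-selectin ligand, at 1.04 (0.722 to 1.50). Spn, the gene of the sialomucin CD43, stood at 0.844 (0.710 to 1.00). Podxl, the gene of podocalyxin and below 50 UMIs, had 14 against 22.

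The surface marker list of Kit, Ly6a, Slamf1, Cd48, Ly6e and Ptprc, of which Ly6e and Ptprc were no part of the gate, stood at 0.949 (0.869 to 1.04) and at 0.898 (0.835 to 0.965) against the unused cells. It stood at 0.820 (0.731 to 0.919) without Kit, while the 4 genes of the gate alone stood at 1.04 (0.923 to 1.18). Kit gave 443 of the 545 positive and 373 of the 519 undetected UMIs of these 4 genes. Ly6a had 91 against 122 UMIs, Slamf1 5 against 19 and Cd48 6 against 5. Kit, the stem cell factor receptor, stood at 712 CPM against 604, a ratio of 1.18 (1.03 to 1.36), and at least 2 Kit UMIs were found in 40.4% of the cells of either side. Ptprc, the gene of CD45, stood at 0.749 (0.600 to 0.932), with 14 against 10 UMIs in aliquot 1, and Ly6e at 0.919 (0.783 to 1.08).

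The myeloid primed sum was lower in positive cells through Lyz2, and the erythroid sum was close to 1. The myeloid primed list stood at 0.760 (0.700 to 0.825), but at 0.994 without Lyz2, the lysozyme gene, which stood at 0.319 (0.263 to 0.384). Of the 461 Lyz2 UMIs of the undetected side 253 came from 3 cells. Lyz2 stood at 0.508 (0.414 to 0.622) in matched cells without those rich in neutrophil transcripts, and at 0.379 (0.317 to 0.450) against the unused cells. Cebpb, a myeloid transcription factor, was past 1.5-fold lower at 0.601 (0.407 to 0.878), and Myb, a progenitor transcription factor, stood at 1.31 (1.05 to 1.64). The erythroid list stood at 0.923 (0.854 to 0.999), with Car2, a carbonic anhydrase, at 0.901 (0.821 to 0.988) and the globin Hbb-bt past 1.5-fold higher at 2.04 (1.15 to 3.73) from 39 against 19 UMIs. Gata1 or Klf1 was found in 5.26% of positive and 7.46% of undetected cells.

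The neutrophil list stood at 0.0106 (0.00668 to 0.0159), with all 7 measured genes past 1.5-fold lower. The neutrophil-transcript cells described above numbered 3 among the matched undetected cells and 0 among the positive cells, and 587 of the 594 S100a9 UMIs of the undetected side came from 3 cells. Of all 989 undetected cells 10 were of that kind. Without them, an alternative chosen after seeing the data, the neutrophil list stood at 0.737 (0.410 to 1.31), the myeloid primed list at 0.916 (0.841 to 0.999), the MPP list at 1.36 (1.23 to 1.51) and the LT-HSC list at 0.838 (0.799 to 0.879). The monocyte, macrophage and dendritic list held 10 UMIs on the positive and 39 on the undetected side, with Csf1r and C1qa at 0 on both.

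Defining genes of the other marrow cells that make CD34 had few UMIs on both sides. The endothelial list stood at 1.08 (0.884 to 1.33), with 203 against 186 UMIs. A UMI of Cdh5, Pecam1, Emcn or Kdr was found in 18.4% of positive cells (13.6 to 24.1%) and 17.5% of matched undetected cells. The defining endothelial genes Cdh5, Plvap and Stab2 were at 0 on both sides, while Tie1, Emcn, Pecam1 and Egfl7, which stem cells also express, had 70 against 65, 35 against 27, 30 against 24 and 53 against 51 UMIs. The mast cell, basophil and eosinophil list stood at 0.986 (0.919 to 1.06), but Srgn, serglycin, which many blood cells express, gave 1326 of its 1579 and 1253 of its 1590 UMIs. Without Srgn it stood at 0.745 (0.631 to 0.880). Gata2, the stem cell transcription factor described above, gave 209 of the remaining 253 positive and 255 of the remaining 337 undetected UMIs. In the mast cell list Cpa3 had 5 against 10 UMIs, Tpsb2, Cma1 and Ms4a2 were at 0 on both sides, and Fcer1g, an Fc receptor chain, was past 1.5-fold lower at 0.575 (0.363 to 0.898). Without the neutrophil-transcript cells Fcer1g stood at 0.745 (0.459 to 1.20), an interval that includes 1. The stromal list held 28 against 18 UMIs, 1.54 (0.825 to 2.96), with Col1a2, a collagen gene, at 10 UMIs in 7 positive cells and 0 in undetected cells and Cxcl12 at 0 on both sides. The B, T and NK list held 69 against 59 UMIs, of which Nkg7 gave 47 against 39.

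Housekeeping and metabolic lists were close to 1. Ribosomal protein genes stood at 0.998 (0.986 to 1.01), mitochondrially encoded genes at 0.983 (0.967 to 0.999), oxidative phosphorylation genes at 0.981 (0.943 to 1.02) and glycolysis and hypoxia genes at 0.982 (0.919 to 1.05), with no measured gene of these 4 lists past 1.5-fold. The interferon response list stood at 0.961 (0.852 to 1.08), also with 0 genes past 1.5-fold. In the cytokine receptor list, at 0.992 (0.922 to 1.07), Flt3 was past 1.5-fold higher and Tnfrsf1b, a TNF receptor with 23 against 39 UMIs, past 1.5-fold lower. In the niche and adhesion list, at 0.936 (0.880 to 0.996), Itgb2, an integrin chain, was past 1.5-fold lower at 0.423 (0.237 to 0.727) and Mmrn1, multimerin, at 0.590 (0.438 to 0.789). Tnfrsf1b, Itgb2 and Mmrn1 are named after their values were seen. Angpt1, a ligand of the TIE2 receptor, stood at 1.06 (0.893 to 1.27), Itga6, an integrin chain, at 0.719 (0.557 to 0.924) and Cxcr4, the receptor of the niche chemokine CXCL12, at 0.924 (0.690 to 1.24).

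The genes with the highest ratios after Flt3 were of low abundance. The other 11 included Slc35b4, Srpk2, Ubqln2, Ddx54, Lrrc8d, Ppil2, Ccdc9, Nmral1, Epb4.1l2 and Nfx1, each with 38 to 53 UMIs in positive and 12 to 18 in undetected cells. Nmral1, a redox sensor protein gene, stood at 2.65 (1.43 to 5.16), and at 2.92 (1.83 to 4.68) against the unused cells, and Ppil2, a cyclophilin-like ubiquitin ligase, at 2.76 (1.58 to 5.02) and 2.04 (1.39 to 2.98). By contrast Ubqln2, a ubiquilin, went from 3.11 in matched to 1.11 against unused cells, Ddx54, an RNA helicase, from 2.85 to 1.23, Slc35b4, a nucleotide sugar transporter, from 3.31 to 1.25 and Nfx1 from 2.63 to 1.301. Of the 12 highest genes, Flt3 included, 6 were still at least 1.5-fold higher against the unused cells. The 12 were picked by the matched ratio, and the same positive cells enter both ratios.

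The lowest ratios were those of Ngp, S100a9, S100a8 and Pf4, described above, followed by Nek1, Slc14a1, Rraga, Lyz2, Cir1, Kdelc1, Zfp120 and Cd74. Slc14a1, a urea transporter gene, stood at 0.309 (0.187 to 0.495) with 24 against 77 UMIs, and at 0.435 (0.271 to 0.672) against the unused cells. Rraga, a GTPase of the mTORC1 pathway, stood at 0.318 (0.192 to 0.509) and 0.486 (0.301 to 0.754), and Cir1, a transcriptional corepressor, at 0.366 (0.211 to 0.613) and 0.507 (0.302 to 0.812). Nek1, a kinase, stood at 0.266 (0.123 to 0.528), with 20 of the 41 UMIs of the undetected side in 3 cells, and Kdelc1 at 0.367 in matched and 0.715 (0.393 to 1.23) against unused cells. Slc14a1, Rraga, Cir1 and Cd74 thus lay below 1 against either set of undetected cells, with the same positive cells in each ratio.

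The GFP reporter transcript was rarer among positive cells. It was found in 1 of 228 Cd34-positive cells, 0.439% (0.0111 to 2.42%), in 33 of 989 undetected cells, 3.34% (2.31 to 4.65%), and in 7 of the 228 matched undetected cells, 3.07% (1.24 to 6.22%). Of the 39 kept cells with a reporter UMI, 33 had 0 Cd34 UMIs, 5 had 1 and 1 had more. The reporter cells came from another mouse line and another sort than the SLAM cells, so genotype, gate and Cd34 cannot be told apart in them. Without the reporter cells the MPP and lymphoid list stood at 1.3 (1.18 to 1.44) and the LT-HSC list at 0.840 (0.800 to 0.881). Barcode names shared by the aliquots numbered 461, of which 1 was kept in both, and no matched cell shared a name with a matched cell of the other aliquot. The doublet caller Scrublet marked 9 cells of aliquot 1 and 16 of aliquot 2, 0.572% and 0.875% of cells with at least 500 UMIs, and without them the MPP and lymphoid list stood at 1.33 (1.20 to 1.48) and the LT-HSC list at 0.834 (0.795 to 0.875).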

How the data were processed

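Per the labels, 2 inDrops libraries were made from 1 pool. The deposited files hold raw UMI counts per gene and barcode, with no normalization by the authors stated or seen. Per the submitters' processing notes, GRCm38, RSEM 1.3.0, Bowtie 1.1.1 and SAMtools 1.3.1 were used, with no roles given. How reads of near-identical gene copies were assigned is not stated. The sources used here give no cell filter of the authors.

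The cells, the lists and the rule for named genes were chosen with earlier results of these data known. The 2 libraries held 1801787 and 4726601 UMIs, and kept cells had medians of 1749 and 2296. Positive cells were paired from the deepest down with the nearest undetected cell of the aliquot within 25% of its total (GFP and Cd34 left out), without replacement, and all 228 found a partner. UMIs were summed per side and ratios of CPM given with exact conditional binomial intervals, levels with Poisson and shares with Clopper-Pearson intervals. No model was fitted and no p-value computed. Named are the measured members of the CD34 family, sorting marker, LT-HSC and MPP lists, the 12 highest and 12 lowest ratios (in at least 10 cells, 1 direction in the aliquots, at least 1.5-fold without the cell with most UMIs), and up to 6 most abundant members of other lists, except for genes not reported here. The ratio code was tested on simulated data. Symbols of 26589 of 28206 features were in the gene table, and H19, Ighm, Cavin2 and Trac of the lists were not among the features. Gene positions are from GENCODE vM21 and upstream sequences from RefSeq, which held all 4 genes asked for. Doublets were marked with Scrublet in scanpy 1.11.5 (expected rate 6%), with no cell removed in the main results. Other tools were scipy 1.17.1, pandas 2.3.3, numpy 2.4.6 and matplotlib 3.10.9 under Python 3.11.15.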

Additional observations from a re-analysis of the deposited data

How the results depend on the processing

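The 17 alternatives that used both aliquots left the MPP and lymphoid list between 1.21 and 1.58, the LT-HSC list between 0.693 and 0.868, the MHC class II list between 0.608 and 0.812 and the megakaryocyte list between 0.532 and 0.819, in each case on the same side of 1. Leaving out list members, also chosen after seeing the data, moved the MPP list to 1.13 without Plac8, to 0.903 without its 3 members past 1.5-fold higher and to 0.957 without these and Lsp1, and the MHC class II list to 0.888 without its 2 lower members. Plac8 ranged from 1.75 to 2.65, Cd27 from 1.51 to 2.45, Flt3 from 1.78 to 4.29, Cdk6 from 1.27 to 2.07 and Cd74 from 0.289 to 0.582. Alternatives that left out neutrophil-transcript cells or Pf4-rich cells, or used the undetected cells outside the match, were chosen after seeing the data. Depth limits every single gene: at 50 UMIs a ratio has a wide counting interval, and 1 choice of matched cells enters each value. No paired analysis was possible because the samples are 2 aliquots of 1 pool in 1 group. The cause of the changes below was not tested.

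Counts past 1.5-fold, 262 higher and 255 lower in the main comparison, moved to 52 and 67 with 100 UMIs per gene, to 875 and 897 with 20 UMIs, to 52 and 69 with a 2-fold limit, to 140 and 141 in cells thinned to 1500 UMIs and to 116 and 91 without cells of 3 or more G2 and M phase UMIs. The lower count was 598 against all undetected cells, 400 with a 2 to 1 match and 493 against the unused undetected cells. Leaving out 1 aliquot gave 8 to 311 higher and 14 to 306 lower genes, with aliquot 1 alone at the low end. Higher genes made up 50.7% of those past 1.5-fold, but 38.9% against all undetected cells and 36.4% in aliquot 1 alone. Only 75 of the 380 genes higher against all undetected cells were among the 262, 19.7% of the former and 28.6% of the latter.

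Against all undetected cells the LT-HSC list stood at 0.727, the megakaryocyte list at 0.762, S phase at 1.23, G2 and M phase at 1.24 and immediate early genes at 0.956, with Jun at 0.993. Against the unused undetected cells these were 0.693, 0.814, 1.3, 1.37 and 0.875, with Jun at 0.929. A 2 to 1 match gave 0.700 for megakaryocyte, 1.15 for immediate early and 1.002 for mitochondrially encoded genes. Thinned cells gave 0.702 for megakaryocyte, 1.05 for G2 and M phase and 1.41 for immediate early genes, and the mean of per-cell CPM gave 0.709 for megakaryocyte genes. With at least 1 Cd34 UMI the megakaryocyte list stood at 0.791 and immediate early genes at 0.992. With at least 3 Cd34 UMIs the LT-HSC list stood at 0.762, the MPP list at 1.56, G2 and M phase at 0.842, myeloid primed genes at 1.01, Fcer1g at 1.35, Kit at 0.927, Lyz2 at 1.06 and Npm1 at 0.950. In cells of at least 3000 UMIs the megakaryocyte list stood at 0.532, G2 and M phase at 0.836, immediate early genes at 1.18, Jund at 0.769 and mt-Co2 at 1.01. With no granulocyte limit Hbb-bt stood at 0.947. Without Pf4-rich cells the megakaryocyte list stood at 0.819, and without neutrophil-transcript cells S100a8 at 1.19 (0.303 to 4.94).

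Without cells of 3 or more G2 and M phase UMIs, 82 per side, the MPP list stood at 1.58, megakaryocyte genes at 0.779, S phase at 0.841, G2 and M phase at 1.15, MHC class II at 0.608, myeloid primed genes at 1.17, ribosome biogenesis at 0.990 and monocyte genes at 1.25. There Bcl11a stood at 1.24, Camp at 2.00, Fcer1g at 1.17, Lyz2 at 1.16, Mcm7 at 0.911, Npm1 at 0.961 and Zfp120 at 2.33.

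Leaving out 1 aliquot at a time gave 0.610 to 0.857 for the LT-HSC list, 1.25 to 2.88 for the MPP list, 0.543 to 0.652 for megakaryocyte, 0.755 to 1.08 for ribosome biogenesis, 0.917 to 1.79 for G2 and M phase genes, 0.915 to 1.08 for S phase genes, 1.25 to 2.13 for immediate early and 0.312 to 0.742 for MHC class II genes. Of 67 named genes whose interval left out 1 in the main comparison, 10 lay on the other side of 1 in the 19 pairs of aliquot 1 alone. The values of both aliquots spanned 0 to 3.14 for Ccdc9, 0 to 3.61 for Slc35b4, 0.999 to 2.98 for Ddx54, 0.566 to 1.099 for Cd9, 0.772 to 1.5 for Ifitm3, 0.817 to 1.36 for Igfbp4, 0.649 to 2.997 for Mllt3 and 0.714 to 1.4 for Ptprc. In aliquot 1 alone Mcm7 stood at 0.807 and Npm1 at 0.788. The shares of cells with S phase UMIs were 72.8% on both sides not thinned, and 44.7% of positive against 39.9% of undetected cells at a limit of 5 UMIs. The G2 and M phase shares were 64.0% against 60.5% and 36.4% against 29.8%.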

Other observations

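Some genes outside the lists, chosen after their values were seen, are given here with both sets of comparison cells. For all of them but Grcc10 the interval left out 1, in the same direction, in both sets. H2afy, the gene of the histone variant macroH2A1, was abundant, with 81 UMIs in positive and 49 in undetected cells of aliquot 1 and 1082 against 670 in aliquot 2. It stood at 1870 CPM against 1164, a ratio of 1.61 (1.46 to 1.77), and at 1.58 (1.47 to 1.70) against the unused undetected cells. H2afy was found in 195 positive and 172 undetected cells, and 100 against 57 cells held 5 or more of its UMIs. Hmgn1, a nucleosome-binding protein gene, stood at 2.05 (1.62 to 2.62) and 1.70 (1.43 to 2.02). Stmn1, stathmin, a regulator of microtubules in dividing cells, stood at 1.27 (1.16 to 1.39) and 1.39 (1.29 to 1.50).

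Ctla2b, a cathepsin inhibitor-like gene with the near copy Ctla2a, between which reads may be divided, stood at 1.99 (1.53 to 2.60) with 174 against 87 UMIs, and at 1.48 (1.22 to 1.78) against the unused cells. Adgrl4, an adhesion receptor known from endothelium, stood at 1.52 (1.23 to 1.88) and 1.26 (1.07 to 1.47). Tmsb4x, thymosin beta 4, an actin-binding peptide gene with near copies, stood at 0.684 (0.640 to 0.732) and 0.813 (0.766 to 0.862), but at 1.11 in aliquot 1. Grcc10 stood at 0.628 (0.511 to 0.769) in matched cells and at 0.927 (0.769 to 1.11) against the unused cells.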
